A study of Mus musculus with 8 samples.

Results

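The myogenic regulatory factors and the MEF2 genes were followed in muscle stem cells (MuSCs) of aged mice cultured with nicotinamide and pyridoxine (NAM/PN) or with vehicle. The 7 genes were found by symbol among the 55487 gene identifiers of the count table, and they were 4 myogenic regulatory factors (Myf5, Myod1, Myog and Myf6) and 3 MEF2 genes (Mef2a, Mef2c and Mef2d). MuSCs sorted from muscle were seeded in growth medium with either 1% DMSO (vehicle) or the NAM/PN combination at 1 mM, and RNA was taken after 72 hours. The labels do not say whether 1 mM is the concentration of each compound or of both together. Cells of 8 wild-type C57BL/6JRj male mice were combined into 4 pools of 2 mice, and each pool gave 1 vehicle and 1 NAM/PN library. The labels call the mice old without giving an age. The methods, from which strain and sex are taken, give the aged mice of the study as 23 to 25 months old and those of the MuSC proliferation assay as 23 to 24 months old. That assay differs from the labels in that it ran longer and had a lower DMSO concentration as vehicle. The sort kept cells that were CD31-, CD11b-, CD45- and Sca1- and also CD34+ and integrin α7+, as described for hindlimb muscle of young mice. No young cells were analysed here.

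The myogenic regulatory factors are basic helix-loop-helix proteins that bind the E-box, CANNTG, as dimers with E proteins, and they act in a loose order in the muscle lineage. Myf5 and Myod1 mark activated stem cells and myoblasts, Myog encodes MYOGENIN, which is switched on when myoblasts commit to differentiate, and Myf6 encodes MRF4, which is mainly a factor of differentiated fibers. MEF2 proteins are MADS-box factors that bind A/T-rich sites, have little myogenic activity alone, and act with the myogenic regulatory factors at the promoters of contractile and metabolic genes of muscle.

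NAM/PN lowered Myog and Mef2c, and no other member passed the test. Myog was expressed at 21.4% and Mef2c at 23.2% of its vehicle level. Myod1, the most abundant member, had a fold change of 0.88 with a 95% interval of 0.711 to 1.09. Of the 6 members with enough counts to be tested, 2 were called lower at an adjusted p-value under 0.05 (edgeR quasi-likelihood test with Benjamini-Hochberg adjustment over 12060 genes), where 0.995% of all tested genes were called lower, and 0 members were called higher, where the share of all tested genes was 0.282%. The groups did not overlap for 2 members, against 4.42% of all tested genes that were lower without overlap. In all 4 pools 3 members, Myog, Mef2a and Mef2c, were lower with NAM/PN, against 10.6% of all tested genes. All 6 fitted log2 fold changes were below 0, as were those of 50.2% of tested genes.

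The promoters of Myog and Mef2c are shown because these 2 genes were the ones called, and because E-boxes and MEF2 sites are the sequences that the proteins of both families bind. Each is the 250 bases before a RefSeq transcription start (GRCm38.p6), 5′ to 3′ on the strand of the gene. Capitals mark E-boxes (CANNTG, which reads the same on both strands) and a loosened MEF2 site, which is TA, then bases that are each A or T, then TA, with 1 base on either side. The Myog window is chr1:134289754-134290003 and the Mef2c window, before the first of its 3 RefSeq starts in the table used, is chr13:83503784-83504033, both on the plus strand.
Myog: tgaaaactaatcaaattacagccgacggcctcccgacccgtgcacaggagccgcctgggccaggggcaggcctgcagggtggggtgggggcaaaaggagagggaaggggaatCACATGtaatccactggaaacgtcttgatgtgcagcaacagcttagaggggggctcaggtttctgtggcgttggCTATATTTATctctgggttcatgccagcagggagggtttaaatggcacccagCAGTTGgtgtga
Mef2c: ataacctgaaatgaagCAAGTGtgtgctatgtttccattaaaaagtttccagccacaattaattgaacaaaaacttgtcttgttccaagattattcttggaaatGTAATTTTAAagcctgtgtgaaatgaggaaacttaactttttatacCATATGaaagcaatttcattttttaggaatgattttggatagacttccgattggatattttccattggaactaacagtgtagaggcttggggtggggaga

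In the Myog window, E-boxes began 138 and 12 bases before the start, and the loosened MEF2 site began 64 bases before it. In the Mef2c window, E-boxes began 234 and 100 bases before the start and the loosened MEF2 site 146 bases before it. At the 2 later Mef2c starts, 1 E-box was found, 245 bases before the third start. The windows of Myf5, Mef2a and Mef2d held 0 matches to either motif. Among 32851 promoters of the same length, 66.2% held an E-box and 8.48% the loosened MEF2 site, so an E-box in such a window is common. Stricter motifs were searched as well and had 0 matches in all 7 windows of the members. These were the E-box CAGCTG, held by 13% of all promoters, the E-box CACCTG or its reverse complement CAGGTG, held by 17.2%, and the strict MEF2 site, which differs from the loosened one in that its first base is a pyrimidine and its last a purine, held by 2.92%. A match is a sequence feature and was not tested for binding, and windows for 5 of the 7 members were in the table.

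The libraries held between 6472484 and 10163101 counts. Since each transcript is read near its 3′ end, counts were not divided by gene length, and levels are given as normalized CPM (read counts divided by the library's size after TMM scaling). Gene counts differed between all replicates of a condition by far more than counting noise, so no library was a repeat of another of its condition. Pairs across conditions were not compared in this way. Markers of the sorted cells were present: the 8 genes of a muscle stem cell and myoblast list, without Myf5 and Myod1, summed to 1537 to 1899 CPM in vehicle libraries and 1270 to 1581 CPM in NAM/PN libraries. Of 8 immune markers 7 were at 0 in all libraries (Ptprc, Adgre1, Csf1r, Itgam, Lyz2, Cd52 and Tyrobp), the exception being Cd68. The fibro-adipogenic markers Pdgfra, Lum and Dpt, the endothelial markers Emcn, Flt1, Tie1 and Cldn5, the smooth muscle marker Myh11, the Schwann marker S100b and the tendon markers Tnmd and Fmod were also at 0, while Scx, the remaining tendon marker, was at 202 to 331 CPM. Col1a1 stood at 486 and 1032 CPM in NAM/PN replicates 1 and 2, against 1.74 to 41.3 CPM elsewhere. Col3a1, of the same fibro-adipogenic list, went the other way. Its level was 149 to 166 CPM in vehicle libraries and 53.7 to 84.4 CPM in NAM/PN libraries. In NAM/PN replicates 1 and 2 Col3a1 was at 66.6 and 84.4 CPM. Without these 2 libraries Myog was still called (log2 fold change -2.05, adjusted p = 0.0109 in edgeR) whereas Mef2c was not (-2.29, adjusted p = 0.0827).

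Vehicle replicate 3 and NAM/PN replicate 4 stood apart before any comparison. The χ2 statistic per degree of freedom between the gene counts of a pair of libraries was 64.4 to 82.2 for vehicle replicate 3 against the other vehicle libraries and 23.2 to 28.3 among those. It was 67.5 to 78.7 for NAM/PN replicate 4 against the other NAM/PN libraries and 22.8 to 25.5 among those. Vehicle replicate 3 held 18.7% of its counts on the ribosomal RNA gene CT010467.1, against 5.22% to 11.6% in the other libraries. The lowest share was that of NAM/PN replicate 4, which also had the fewest genes detected, 12483 against 12939 to 14472. Vehicle replicate 3 had the highest vehicle level of Myf5, Mef2a and Mef2c and the lowest vehicle level of Myod1, Myog and Mef2d. Without it, Myog was still called (log2 fold change -2.41, adjusted p = 7.51e-05 in edgeR) and Mef2c was not (-1.81, adjusted p = 0.069), while the log2 fold changes were -0.27 for Myod1, -0.36 for Myf5, -0.50 for Mef2a and -0.51 for Mef2d, none of them called. Without NAM/PN replicate 4, Myog (-2.43, adjusted p = 0.000183 in edgeR) and Mef2c (-2.26, adjusted p = 0.0151) were called, and the uncalled members had log2 fold changes of -0.23 for Myod1, -0.83 for Myf5, -0.55 for Mef2a and -0.43 for Mef2d. Why these libraries stood apart was not tested.

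Myod1 (ENSMUSG00000009471, chromosome 7 of GRCm38 from 46376474 to 46379099) encodes MYOD, the factor that can convert other cells to muscle. It was expressed at 1380 normalized CPM in pool 1, 1388 in pool 2, 1136 in pool 3 and 1561 in pool 4 with vehicle. With NAM/PN the values were 1038, 1143, 1308 and 1314 CPM. The groups overlapped, and Myod1 was lower in 3 of 4 pools and higher in pool 3. The log2 fold change was -0.19 (95% interval -0.49 to 0.12), with an adjusted p of 0.824 in edgeR's test. Among the 12060 tested genes Myod1 ranked 50 by average level.

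Myf5 (ENSMUSG00000000435, chromosome 10 from 107482908 to 107486134), the first of the family to be expressed in the embryo, was much less abundant. Vehicle libraries of pools 1 to 4 had 29.4, 37.8, 66.3 and 32.1 CPM, and NAM/PN libraries had 31.6, 25.1, 13.1 and 33.4 CPM. The highest and the lowest of these 8 values came from pool 3, in which Myf5 was lower by 2.34 on the log2 scale, while pools 1 and 4 were slightly higher with NAM/PN. The log2 fold change was -0.68 (95% interval -1.41 to 0.06, adjusted p = 0.602 in edgeR), and without pool 3 it was -0.14.

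Myf6 (ENSMUSG00000035923, chromosome 10 from 107492853 to 107494737) lies 6718 bases from Myf5 on the same strand. It had 0 counts in all vehicle libraries and in 3 of 4 NAM/PN libraries, and 15 counts, or 2.09 CPM, in NAM/PN replicate 2. A count of 0 allows up to 3 counts, which is 0.295 to 0.464 CPM of the library total, so that lower levels could not be detected at this depth. Floors cover counting error only. Myf6 did not pass the filter on low counts and was not tested.

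**Figure D1:**
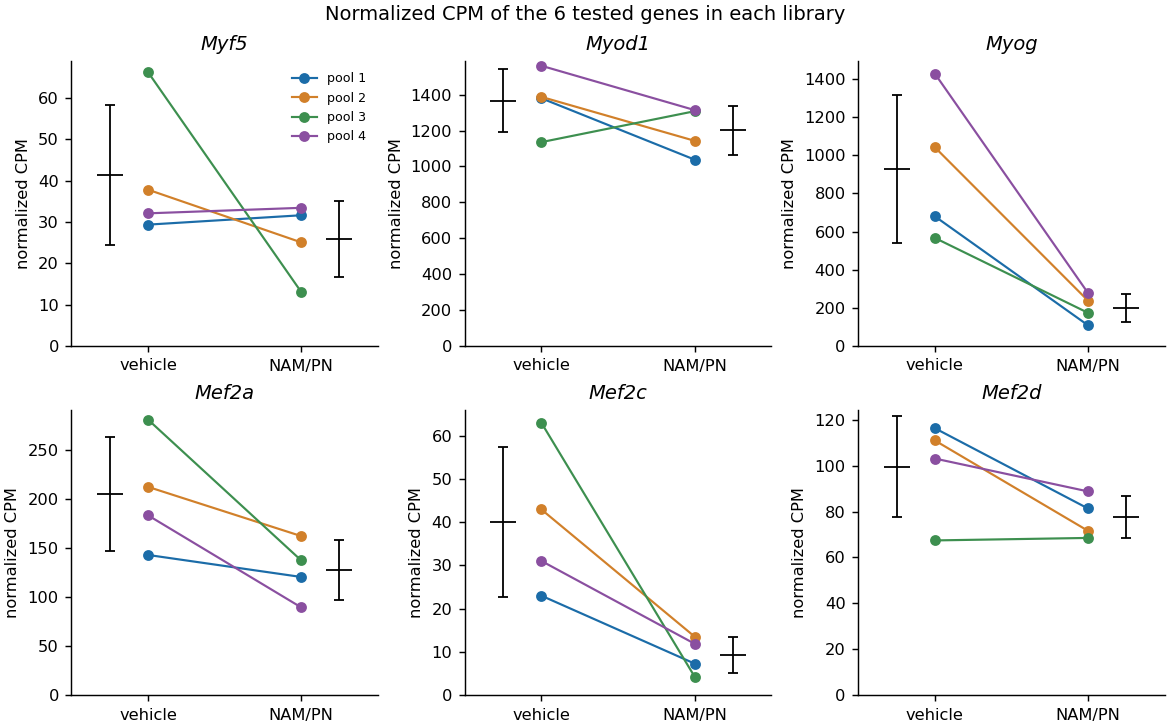
Normalized CPM (vertical axes, linear from 0) of the 6 tested genes with vehicle and with NAM/PN. Each point is a library, lines join the libraries of a pool, and black marks give the mean and SD of 4 libraries. All 4 lines fall for Myog, Mef2a and Mef2c, and only for Myog and Mef2c do the groups not overlap.

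Myog (ENSMUSG00000026459, chromosome 1 from 134289989 to 134292548) was the member with the smallest p-value. Vehicle libraries of pools 1 to 4 had 679.7, 1042, 566 and 1428 CPM, and NAM/PN libraries had 108, 237, 173 and 277 CPM. The highest NAM/PN library was below the lowest vehicle library. Pool 4 had the highest level in each condition. On the log2 scale it fell by 1.71 in pool 3, where the change was smallest, and fell by 2.66 in pool 1. The fitted log2 fold change was -2.22 (95% interval -2.82 to -1.62, adjusted p = 0.000232 in edgeR), which ranked 13 by p-value among 12060 genes. In these bulk libraries, fewer cells that express a gene and less RNA per cell cannot be told apart.

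Mef2c (ENSMUSG00000005583, chromosome 13 from 83504034 to 83667080) encodes a MEF2 factor that is induced as muscle cells differentiate, and it fell from a much lower level. Vehicle libraries of pools 1 to 4 had 23.0, 42.9, 63.0 and 31.0 CPM, and NAM/PN libraries had 7.26, 13.5, 4.26 and 11.9 CPM. The NAM/PN values rest on 28 to 127 counts a library. The groups did not overlap. On the log2 scale Mef2c fell by 3.88 in pool 3, and it changed by -1.67 to -1.39 in the other pools. The fitted log2 fold change was -2.11 (SE 0.43, 95% interval -3.00 to -1.22, adjusted p = 0.0125 in edgeR). The direction held with each library and each pool left out, but the call did not. The adjusted p-values in edgeR were 0.0691 without vehicle replicate 2, 0.069 without vehicle replicate 3 and 0.0577 without NAM/PN replicate 1, and 0.0655, 0.0936 and 0.131 without pools 1, 2 and 3. Without pool 3 the log2 fold change was -1.57.

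Mef2a (ENSMUSG00000030557, chromosome 7 from 67231163 to 67372858, minus strand) was the most abundant MEF2 gene. In pools 1 to 4 the vehicle libraries had 143, 213, 282 and 184 CPM and the NAM/PN libraries 121, 162, 138 and 89.6 CPM. Each pool was lower with NAM/PN, but the groups overlapped. The log2 fold change of -0.69 (95% interval -1.15 to -0.22) had a p-value of 0.00614 before adjustment in edgeR's test across all genes and an adjusted p of 0.194, so Mef2a did not pass the test. It was called only when no filter on low counts was applied (adjusted p = 0.0276 in edgeR). The exons of Mef2a overlap those of Lysmd4 on the other strand, which had 0 to 103 counts a library, and the strand setting of the counting is not given in the sources used here.

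Mef2d (ENSMUSG00000001419, chromosome 3 from 88142372 to 88172086) encodes a MEF2 factor that is present already in dividing myoblasts. Vehicle libraries of pools 1 to 4 had 116, 111, 67.4 and 103 CPM and NAM/PN libraries 81.4, 71.6, 68.5 and 88.8 CPM. The lowest of the 8 values was a vehicle library, that of pool 3, and the groups overlapped. The log2 fold change was -0.36 (95% interval -0.80 to 0.09, adjusted p = 0.707 in edgeR). An antisense gene, 1700113A16Rik, overlaps its exons and had at most 13 counts. GENCODE lists 12 transcripts of Mef2a, 31 of Mef2c and 7 of Mef2d, and counts per gene do not separate them.

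**Figure D2:**
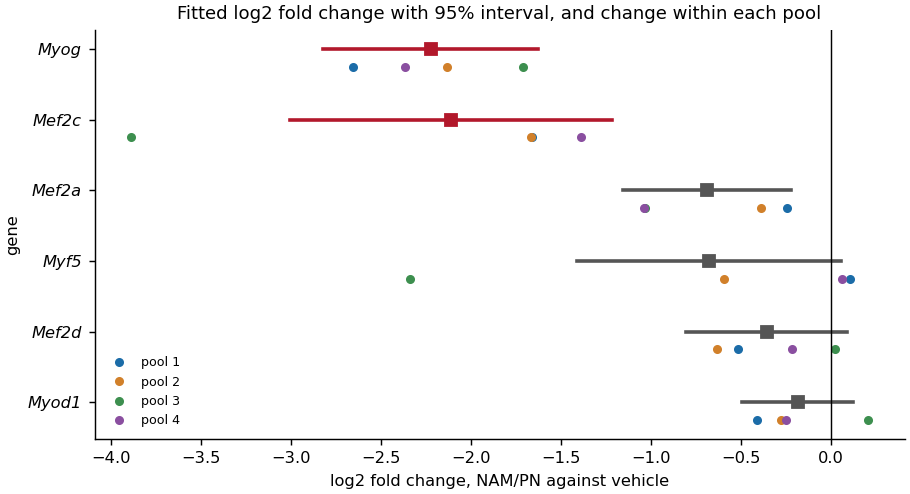
Log2 fold change of NAM/PN against vehicle (horizontal axis) for the 6 tested genes (vertical axis). Squares are fitted values with 95% intervals, red where the adjusted p was under 0.05, and small points are the changes within the 4 pools. Myog at -2.22 and Mef2c at -2.11 stand to the left of the other genes, and pool 3 is the point farthest to the left for Mef2c and Myf5.

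The order of the levels with vehicle was Myod1, Myog, Mef2a, Mef2d, Myf5 and Mef2c. Each gene was above the next in all 4 vehicle libraries, except that Myf5 was above Mef2c in 3 of 4 (41.4 against 40.0 CPM on average). With NAM/PN the order by mean was the same, but Myog was above Mef2a in 3 of 4 libraries (199 ± 74.3 against 128 ± 30.6 CPM, SD, n = 4). In NAM/PN replicate 1 Mef2a exceeded Myog. The spread between vehicle libraries differed among the members, with a coefficient of variation of 12.8% for Myod1, 22.2% for Mef2d, 28.4% for Mef2a and 41.0% to 43.5% for Myf5, Myog and Mef2c.

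Whether members changed to different extents was tested with ratios inside a library, which do not depend on the scaling between libraries. Each of the 4 pairs set Myog or Mef2c, the called genes, against a member that was not called. The pairs were chosen with earlier results of these data known, so lower ratios were likely in advance. The adjustment covers these 4 pairs and no other pairs of members. For every transcript count of Myod1 there were 0.493 to 0.915 of Myog in the vehicle libraries and 0.104 to 0.211 in the NAM/PN libraries. The log2 ratio of Myog to Myod1 was lower with NAM/PN by a difference of -2.03, in 4 of 4 pools (two-sided exact permutation test over 70 assignments, p = 0.0286, Benjamini-Hochberg adjusted p over 4 pairs 0.0381). This is the smallest p that 4 libraries against 4 allow. Sign changes within the 4 pools gave an exact p of 0.125 for this pair, the smallest that 4 pools allow, and so could not reach the threshold.

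Ratios within the MEF2 genes fell as well. Mef2c counts were 0.161 to 0.224 of those of Mef2a with vehicle and 0.0315 to 0.133 with NAM/PN, a difference of -1.46 in log2 ratio. Relative to Mef2d, Mef2c went from 0.198 to 0.934 with vehicle to 0.0633 to 0.190 with NAM/PN, a difference of -1.80. Both were lower in 4 of 4 pools, and both had an exact permutation p of 0.0286 (adjusted 0.0381), and 0.125 by exact sign changes within pools. The exact permutation p became 0.0571 for Mef2c to Mef2a without any 1 of the vehicle libraries, and for Mef2c to Mef2d without vehicle replicate 2 or 3 or any 1 of the NAM/PN libraries. Without vehicle replicate 3 both differences in log2 ratio were -1.38, and without NAM/PN replicate 4 they were -1.79 for Mef2c to Mef2a and -1.90 for Mef2c to Mef2d.

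The ratio of Myog to Myf5 ranged from 8.53 to 44.4 in vehicle libraries and from 3.40 to 13.2 in NAM/PN libraries, and the groups overlapped. Its log2 value was lower in 3 of 4 pools, with a difference of -1.53 that did not pass the test (two-sided exact permutation p = 0.0857, adjusted 0.0857). In pool 3, Myf5 fell more than Myog. Without vehicle replicate 3 the difference was -1.98 and the exact permutation p was 0.0286.

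The make-up of each family therefore differed between the conditions, as a description of the same counts. Of the counts on the 4 myogenic regulatory factors, Myog held 38.5% ± 7.49 with vehicle and 13.7% ± 3.93 with NAM/PN (SD, n = 4), with ranges of 32.0% to 47.3% and 9.16% to 17.1%. Myod1 held 59.5% ± 6.77 and 84.4% ± 3.93. Myf5 held 1.94% ± 1.22 and 1.85% ± 0.752. The summed level of the family was 2337 ± 539 CPM in vehicle libraries and 1426 ± 188 CPM in NAM/PN libraries, and the 2 ranges, 1768 to 3022 CPM and 1178 to 1625 CPM, did not overlap.

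Among the counts on the 3 MEF2 genes, Mef2c held 11.2% ± 3.08 with vehicle and 4.30% ± 1.91 with NAM/PN. Mef2a held 58.7% ± 7.28 and 58.9% ± 8.73, and Mef2d held 30.1% ± 10.3 and 36.8% ± 7.79. The summed level was 345 ± 56.6 CPM and 214 ± 24.0 CPM (SD, n = 4), and this sum did not overlap either between the conditions, from 283 to 412 CPM against 190.3 to 248 CPM. In this sum Mef2a, which was not called and whose groups overlapped, went from 205 to 128 CPM on average. Mef2d went from 99.5 to 77.6 CPM and Mef2c from 40.0 to 9.23 CPM. Mef2b, the remaining gene of the family, had 0 counts in every library, and Borcs8, which overlaps it, had a log2 fold change of 0.06 (adjusted p = 0.993 in edgeR).

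**Figure D3:**
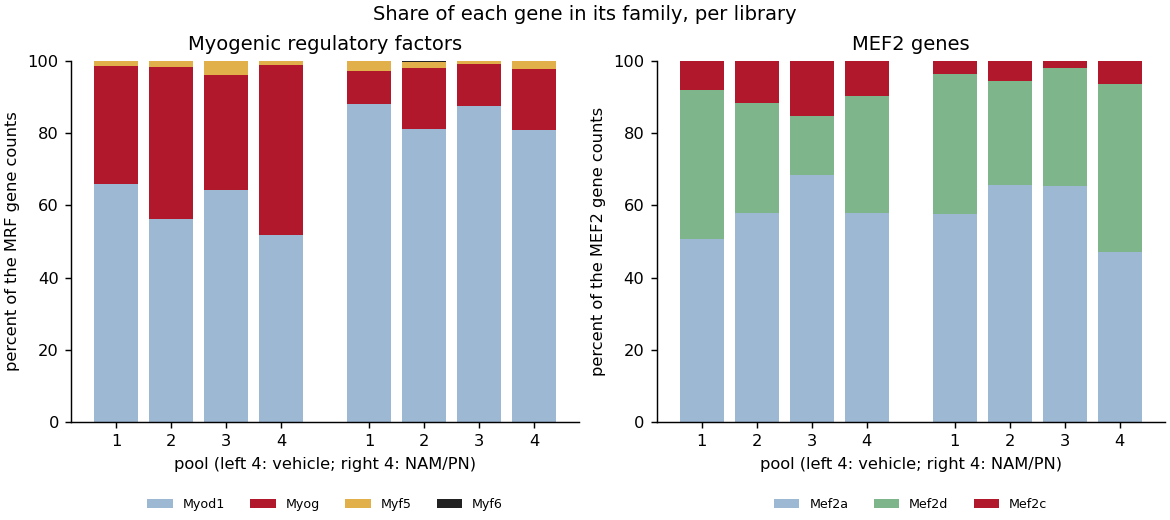
Percent of the counts of a family (vertical axes, 0 to 100) on each of its genes in each library, for the myogenic regulatory factors and the MEF2 genes. Numbers under the bars are pools, with vehicle on the left and NAM/PN on the right of each panel. The Myog part is 32.0% to 47.3% in the vehicle bars and 9.16% to 17.1% in the NAM/PN bars.

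The genes around the members were described by role, from lists of known partners, regulators and targets. E proteins are the partners with which myogenic regulatory factors bind DNA, and 0 of 3 were called by edgeR's test. Tcf4 had the largest difference of these, from 473 ± 115 to 293 ± 33.9 CPM (SD, n = 4), a log2 fold change of -0.69 that was lower in 4 of 4 pools but did not pass the adjustment (adjusted p = 0.0746 in edgeR). Tcf4 was called by DESeq2 (adjusted p = 0.00923), by limma (voom, 0.0473), and in edgeR with the robust fit (0.0498), without the filter on low counts (0.00915) and without vehicle replicate 1 (0.0280). Tcf12 had a log2 fold change of -0.08.

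Inhibitors, such as the Id proteins that hold E proteins away from DNA, gave 0 called genes in edgeR's test among 12 tested of 15. Their median log2 fold change was -0.40, beside -0.0022 for all tested genes. Id2 and Id3, the most abundant, had log2 fold changes of 0.24 (adjusted p = 0.704 in edgeR) and -0.10 (adjusted p = 0.976). In other fits 1 inhibitor was called, Bhlhe41, a repressor of MYOD activity, which had an adjusted p of 0.0832 in edgeR. With the pool as a replicate block its log2 fold change was -1.02 (adjusted p = 0.0242 in edgeR). It was also called by DESeq2 (0.0385), by limma (voom, 0.0203), and in edgeR without the filter (0.0033), without vehicle replicate 3 (0.0450) and without NAM/PN replicate 2 (0.0384).

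Among regulators upstream of the myogenic regulatory factor genes, 0 of 20 tested genes were called, and the median log2 fold change was -0.01. Pax7, the stem cell factor, went from 196 ± 36.2 to 173 ± 50.3 CPM (log2 fold change -0.18, adjusted p = 0.923 in edgeR), and without NAM/PN replicate 4 its log2 fold change was 0.016. Of cofactors and kinases that act on either family, such as class II histone deacetylases, p38 kinases and calcineurin, 0 of 34 tested genes were called and the median was 0.18. The 2 most abundant were Smarca4, an ATPase of chromatin remodelling (log2 fold change 0.05), and Ppp3ca, a catalytic subunit of calcineurin (-0.25, adjusted p = 0.780 in edgeR). At an unadjusted p under 0.05 the same edgeR fit counted 1 E protein, 1 inhibitor, 2 upstream regulators and 4 cofactors or kinases, which is 33.3%, 8.33%, 10% and 11.8% of those tested. The share of all tested genes was 9.28%, and among the target genes described next it was 75.6%, or 34 of 45. DESeq2 and limma also called 0 upstream regulators and 0 cofactors or kinases.

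Target genes showed another picture. Of 45 tested targets of the myogenic regulatory factors and MEF2, 20 were called lower and 0 higher, which is 44.4% of the list beside 0.995% of all tested genes. The fitted log2 fold change was below 0 for all 45, with a median of -1.77 beside -0.0022 for all tested genes, and 37 were lower in all 4 pools. The list was chosen with earlier results of these data known and was not tested as a set. The filter on low counts can let a gene in through its vehicle counts alone, and such a gene can only come out lower. Myom2, with 0 counts in every NAM/PN library, was such a gene and is among the 20 called. Of the 45 targets, 10 had 0 counts in some library. Without pool 2 the count of called targets was 9, and it was also 9 without NAM/PN replicates 1 and 2.

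The largest fitted changes among called targets were in Myom2, Myl4 and Tnnc2. Myom2, a protein of the M band of the sarcomere, had 13, 28, 91 and 95 counts with vehicle and 0 in every NAM/PN library, which is at least 17.4-fold lower when 3 counts per library are taken as the floor. Its call (adjusted p = 0.0422 in edgeR) was lost when any 1 library or pool was left out, with adjusted p-values up to 0.233, with the pool as a replicate block (0.155) and with limma (voom) at 0.0842. Myl4, an embryonic myosin light chain, fell from 45.8 ± 6.81 to 5.38 ± 3.72 CPM (log2 fold change -3.07, adjusted p = 0.0124 in edgeR), and its adjusted p was above 0.05 without vehicle replicate 2 (0.0752), vehicle replicate 4 (0.0504) or pool 1 (0.0852), 2 (0.200) or 4 (0.0844), without NAM/PN replicates 1 and 2 (0.0620), and with DESeq2 (0.0635). Tnnc2, fast troponin C, fell from 55.9 ± 14.1 to 6.73 ± 6.27 CPM (log2 fold change -3.03, adjusted p = 0.00157 in edgeR, 0.0524 without pool 2 and just above the threshold, at 0.05002, without NAM/PN replicates 1 and 2).

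The other 17 called targets had log2 fold changes of -2.70 to -1.001. They included the fusion genes Mymk and Mymx, the contractile genes Acta1, Myh3, Myl1, Mylpf, Tnnc1, Tnni1, Tnnt1 and Tnnt3, the embryonic acetylcholine receptor subunit Chrng, the cell cycle inhibitors Cdkn1a and Cdkn1c, and Smyd1, Klhl41, Pygm and Jph2. Of these 17 genes 5 were called under all 19 alternatives, namely Myh3, Myl1, Mylpf, Chrng and Cdkn1a. The call was lost in 13 alternatives for Tnni1, among them library totals (adjusted p = 0.0615 in edgeR) and the robust fit (0.0691). It was also lost in 13 for Jph2, among them library totals (0.0687 in edgeR), and in 10 for Cdkn1c, among them the pool as a replicate block (0.0586). Acta1 lost its call with the robust fit alone (0.126 in edgeR). With libraries left out the adjusted p in edgeR was up to 0.459 for Tnni1, called among the single libraries only without NAM/PN replicate 4, up to 0.388 for Jph2, called only without vehicle replicate 1, and up to 0.323 for Cdkn1c, which lost its call without vehicle replicate 1 or 4 or NAM/PN replicate 1, 2 or 4. The remaining 8 lost their calls in some fits with libraries left out and in no other, at adjusted p-values of 0.0503 to 0.104 in edgeR. Of these, 6 did so without pool 2 (Mymk, Mymx, Tnnc1, Tnnt3, Smyd1 and Klhl41), Pygm without pool 3 and Tnnt1 without NAM/PN replicates 1 and 2. Smyd1 was the only one of the 8 to lose its call without a single library, NAM/PN replicate 1. Mymk, for the membrane protein Myomaker, went from 96.2 ± 46.0 to 15.8 ± 10.5 CPM, and this gene and the next were chosen after their values were seen. Cdkn1a, for the cyclin-dependent kinase inhibitor p21, was at 1302 ± 154 and 504 ± 76.7 CPM, a log2 fold change of -1.37 (adjusted p = 9.38e-05 in edgeR). The most abundant targets were not called. Chrna1, the muscle acetylcholine receptor α subunit, had a log2 fold change of -0.10 (95% interval -0.39 to 0.20), and Lmna, for lamin A/C, had -0.03 (95% interval -0.32 to 0.27).

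**Figure D4:**
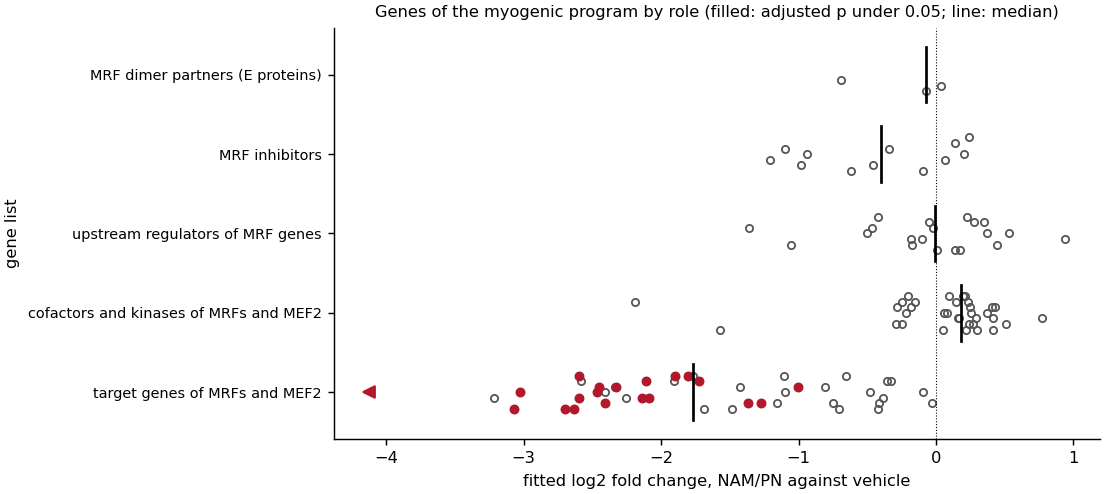
Fitted log2 fold change of NAM/PN against vehicle (horizontal axis) for each tested gene of 5 lists (vertical axis). Filled points had an adjusted p under 0.05, vertical lines are list medians, and the triangle is Myom2 at the bound set by its floor. All filled points are in the target list, whose median is -1.77.

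The genes with the profiles nearest to each member were sought among the 9212 genes whose average log2 CPM was 3 or more, by the root mean square difference of log2 CPM over the 8 libraries after each gene was centred on its own mean. Since the condition is part of each profile, the changes of these genes are a description. For Myog, which itself spread by 1.22 on this scale, the nearest were Myh3 (0.265), Cacng1 (0.285), Klhl31 (0.301), Mymx (0.335) and Acta2 (0.340). Myh3, embryonic myosin heavy chain, went from 87.5 ± 28.8 to 17.4 ± 5.58 CPM. Cacng1, a subunit of the muscle calcium channel, went from 72.3 ± 17.7 to 17.6 ± 8.74 CPM, and Mymx, for the fusion peptide Myomixer, went from 33.8 ± 10.6 to 6.11 ± 2.15 CPM (SD, n = 4).

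For Mef2c, with a spread of 1.21, the nearest were Pygm (0.275), Robo1 (0.323), Cavin2 (0.340), Spsb2 (0.423) and Maf (0.427). Pygm, muscle glycogen phosphorylase, went from 55.9 ± 13.3 to 12.9 ± 6.74 CPM. Like Mef2c, all 5 had their highest vehicle value in pool 3. No gene was among the nearest 5 of both.

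Over the 8 libraries, with the difference between conditions included, the members that were not called spread less. Within vehicle libraries this did not hold for Myf5, whose coefficient of variation was 41.0%, beside 42.0% for Myog and 43.5% for Mef2c. Myod1 spread by 0.179 on the log2 scale, and its nearest genes were Tmem59 (0.0508), St3gal1 (0.0796) and Atp5a1 (0.0822). For Mef2a, with a spread of 0.475, the nearest was the E protein gene Tcf4 (0.130), then Klf6 (0.178) and Ikbip (0.180). For Myf5 they were Cryzl1 (0.157), Abraxas2 (0.173) and Morc3 (0.205), and for Mef2d they were Usp19 (0.0952), AC102106.1 (0.113) and Phlda3 (0.127).

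**Figure D5:**
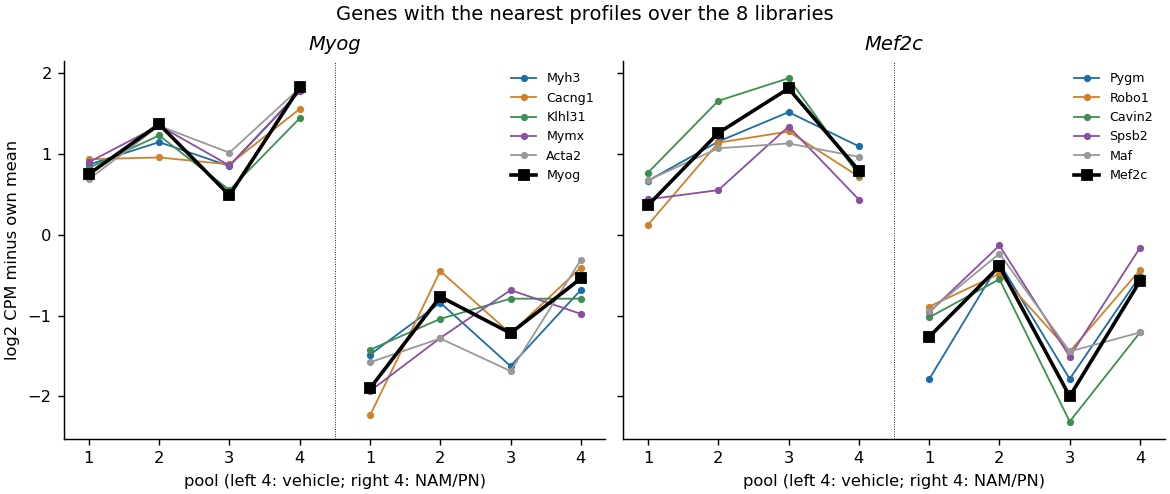
Log2 CPM of Myog and Mef2c (black squares) and of their 5 nearest genes (coloured points) in the 8 libraries, each gene minus its own mean (vertical axis). Horizontal positions are pools, with vehicle left and NAM/PN right of the dotted line, and lines only join points of a gene within a condition. Myog is highest with vehicle in pool 4 and Mef2c in pool 3.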

How the data were processed

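The 8 libraries of cultured MuSCs were 3′ mRNA libraries (QuantSeq FWD). The authors deposited unnormalized counts for each gene, made with Bcl2FastQ, casava, RNASTAR on GRCm38 and htseq-count (HTSeq 2.16.2 per the labels). Symbols and positions were from GENCODE M21 on GRCm38 (55141 identifiers matched), promoters from RefSeq. Genes were filtered with filterByExpr (minimum count 10, minimum total 15), scaled by TMM and compared by edgeR 4.0.16 glmQLFTest in R 4.3.3, as the methods describe for mouse muscle, with an adjusted p under 0.05 over all tested genes. SDs and means are of normalized CPM, and log2 CPM had a prior count of 2. Ratios used counts plus 0.5. Figures were drawn with matplotlib 3.10.9. The fit was tested on simulated data.

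Pool numbers pair the libraries, since a number names the same mice. Deviations from group means of paired libraries correlated between -0.0332 and 0.0313 across genes. Pools hold separate mice. The main fit has no term for the pool, so its p-values measure the spread between libraries within a condition. That spread can hold differences of culture and library preparation as well as of mice. Intervals are 95%. Alternatives were the replicate block, DESeq2 1.42.0, limma 3.58.1 (voom quality weights), no filter, no TMM, a robust fit, a threshold of 0.1, counts plus 2, and leaving out each library or pool. Leaving out NAM/PN replicates 1 and 2 together was chosen after the data were seen.

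The members, lists and tests were chosen with earlier results of these data known. Genes named are the members, all called genes of a list with at most 6 (otherwise the 3 largest changes in each direction), the 2 most abundant genes of each list, and the nearest 5 genes of a called and 3 of an uncalled member. Tcf4, Bhlhe41, the other called targets and marker genes were named after their values were seen. Another gene that this rule names is not reported here.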

Additional observations from a re-analysis of the deposited data

Results flagged for a closer look

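In 8 of 120 groups of 4 libraries, 1 library lay far from the other 3 by Dixon's criterion, which chance gives in about 1 of 20 groups, or 6 of 120. The 8 were not spread evenly over libraries, since 4 were NAM/PN replicate 4 and 2 were vehicle replicate 3, the libraries that stood apart. For the members only Myf6 was among them, at 2.09 CPM in NAM/PN replicate 2 and 0 in the other NAM/PN libraries. In NAM/PN replicate 4, Pax7 was at 97.3 CPM against 196 to 199.9 CPM in the other NAM/PN libraries, Id2 at 974 CPM against 1240 to 1263 CPM, Mymk at 31.5 CPM against 9.90 to 11.3 CPM, and Tnnc2 at 16.1 CPM against 2.59 to 4.32 CPM. Without this library the log2 fold change was 0.016 for Pax7, 0.32 for Id2, -3.19 for Mymk and -3.94 for Tnnc2, beside -0.18, 0.24, -2.60 and -3.03 with it, so that the sign turned for Pax7, which was called in neither fit. In vehicle replicate 3, Cryzl1 was at 61.9 CPM against 32.7 to 36.7 CPM and Spsb2 at 46.4 CPM against 24.7 to 26.8 CPM. In vehicle replicate 4, Cacng1 was at 98.7 CPM against 61.3 to 65.0 CPM. Why these values lay apart was not tested.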

How the results depend on the processing

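Myog was called under all 19 alternatives (log2 fold change -2.49 to -1.95, adjusted p at most 0.0189 in edgeR, limma or DESeq2), and 0 members were called higher. With libraries or pools left out, Myog ranged from -2.43 to -1.95, Mef2c from -2.36 to -1.57, and 1 or 2 members were called lower. Mef2c lost its call in 7 of 19 alternatives, all with fewer libraries, among them NAM/PN replicates 1 and 2 (-2.29). Mef2a was called without a filter (log2 fold change -0.70), where 3 members were called lower. With the pool as a replicate block 33 genes were called higher and 123 lower, Mef2c had an adjusted p of 0.0256 in edgeR and no call of a member changed, while the targets Myom2 and Cdkn1c lost theirs.

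Genes called higher were 34 and genes called lower 120. Without the filter they were 135 and 231, with DESeq2 75 and 214, with voom 66 and 166, and at a threshold of 0.10 65 and 179. Without NAM/PN replicates 1 and 2 they were 7 and 69. With single libraries or pools left out they were 5 to 43 and 37 to 134. The call of 1 E protein (Tcf4) was gained without the filter, with the robust fit, DESeq2, voom and the threshold of 0.10, and of 1 inhibitor (Bhlhe41) with the replicate block, without the filter, with DESeq2, voom and the threshold of 0.10. Each gave 0 or 1 with libraries left out. Called targets were 9 to 20 with libraries or pools left out, and 9 without NAM/PN replicates 1 and 2.

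Ratio differences kept their direction. By exact sign changes within pools (a replicate block) they were -2.03 for Myog to Myod1, -1.46 for Mef2c to Mef2a and -1.80 for Mef2c to Mef2d, with p = 0.125 for each. With libraries or pools left out they were -2.18 to -1.83, -1.84 to -1.01 and -2.12 to -1.11, and -2.24 to -1.11 for Myog to Myf5. With 3 pools the exact permutation p cannot go below 0.10.

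Log2 fold changes near 0 changed sign with single libraries or pools left out for Lmna (-0.11 to 0.021), Id3 (-0.47 to 0.11), Borcs8 (-0.20 to 0.24), Smarca4 (-0.021 to 0.16), Tcf12 (-0.14 to 0.0056), Pax7 (-0.33 to 0.016) and Atp5a1 (-0.20 to 0.019). Lmna was at 0.033 on library totals, and without NAM/PN replicates 1 and 2 Lmna was at 0.021 and Atp5a1 at 0.029. Myf6 and Mef2b had 15 and 0 counts in all, and lower levels could not be detected at this depth. The exons of Mef2b also overlap those of Borcs8 on the same strand, which had 81 to 204 counts a library. Whether this overlap affected the count of Mef2b was not tested. The causes of the changes given here were not tested.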
